A study of Mus musculus with 14 samples.

Results

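The nuclear-encoded genes of oxidative phosphorylation were followed in microglia, macrophages that reside in brain tissue, sorted from the cortex on the operated side. Members were all genes with a single symbol starting with Nduf, Sdha, Sdhb, Sdhc, Sdhd, Uqcr, Cox4i, Cox5, Cox6, Cox7, Cox8 or Atp5, and where a gene had several array rows the row with the highest mean stood for it. This gave 93 of the 19938 genes measured. Of these, 81 code for subunits of the respiratory complexes or of ATP synthase, 11 for assembly factors (7 Ndufaf and 4 Sdhaf genes) and 1, Cox7a2l, for a factor of supercomplex assembly. Complex I had 41 of the genes, complex II 8, complex III 8, complex IV 19 (Ndufa4 and Ndufa4l2 among them) and complex V, the ATP synthase, 17.

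RNA was hybridised to Affymetrix Mouse Gene 1.0 ST arrays, 1 sample per array, from male C57BL/6J mice aged 12 to 14 weeks. The 14 arrays formed 4 groups. These were TLR4-/- after ischaemia and reperfusion (I/R: the middle cerebral artery was closed for 15 min and reperfused for 72 h; arrays B, C and D), TLR4-/- with sham surgery (A, B and D), wild type (WT) after I/R (A to D) and WT with sham surgery (A to D). TLR4 is an innate immune receptor that senses lipopolysaccharide of bacteria and products of tissue injury. How the TLR4-/- allele was made and which markers were sorted on is not stated in the labels. Titles of the I/R samples contain an unexplained abbreviation, IPC, and the treatment label was used instead. Whether the arrays stand for separate animals is not stated, so p-values reflect the spread among arrays, some of which may be technical.

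Oxidative phosphorylation passes electrons from NADH (through complex I) and succinate (through complex II) to complex III, cytochrome c, complex IV and oxygen, and the proton gradient so built drives the ATP synthase. Each of complexes I, III and IV has a small catalytic core, partly encoded by mitochondrial DNA, surrounded by many small accessory subunits encoded in the nucleus. The 13 protein-coding genes of mitochondrial DNA were not analysed here, since none matched a named array row. Microglia are known to use both oxidative phosphorylation and glycolysis, and their balance is known to change with activation.

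The promoters of oxidative phosphorylation genes are known for sites of the transcription factors NRF1, GABP (an ETS factor) and YY1. RefSeq promoters (build GRCm38.p6, 300 bases per gene, of which 250 lie before the start) matched 77 of the 93 genes and were searched on both strands for GCGCA, any base and GCGC (NRF1), CCGGAAGT (ETS) and AAGATG followed directly by GCGG (YY1). The NRF1 letters were found in 19 of the 77 promoters (24.7%), against 4.82% of all 27025 promoters. The ETS letters were found in 6.49% against 3.99%, and the YY1 letters in 5.19% against 0.899%. Of the 31 matched genes that rose after I/R in at least 1 genotype (described below), 5 held the NRF1 letters (16.1%), against 14 of the 46 that rose in neither (30.4%). A match is a description of the letters only. The 250 bases before the start are printed for Ndufs5, Uqcr10 and Cox7b, which rose after I/R in both genotypes, and for Cox6a1, whose change passed in neither, with NRF1 letters in capitals.
Ndufs5, chr4:123718187-123718436, minus strand: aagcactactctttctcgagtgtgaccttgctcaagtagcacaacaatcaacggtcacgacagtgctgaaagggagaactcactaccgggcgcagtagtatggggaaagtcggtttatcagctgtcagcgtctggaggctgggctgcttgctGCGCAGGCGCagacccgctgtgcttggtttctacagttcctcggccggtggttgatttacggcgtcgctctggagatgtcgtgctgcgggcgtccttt
Uqcr10, chr11:4704345-4704594, minus strand: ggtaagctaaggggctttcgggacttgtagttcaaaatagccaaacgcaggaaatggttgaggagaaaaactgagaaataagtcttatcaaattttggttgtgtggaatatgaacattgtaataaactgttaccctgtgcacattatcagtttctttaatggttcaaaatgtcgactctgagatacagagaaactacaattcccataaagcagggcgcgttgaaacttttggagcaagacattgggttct
Cox7b, chrX:106015450-106015699, plus strand: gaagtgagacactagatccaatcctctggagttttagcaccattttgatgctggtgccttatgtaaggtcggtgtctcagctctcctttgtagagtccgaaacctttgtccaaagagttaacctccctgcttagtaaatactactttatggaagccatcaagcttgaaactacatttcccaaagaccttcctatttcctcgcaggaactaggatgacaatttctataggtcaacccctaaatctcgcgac
Cox6a1, chr5:115348959-115349208, minus strand: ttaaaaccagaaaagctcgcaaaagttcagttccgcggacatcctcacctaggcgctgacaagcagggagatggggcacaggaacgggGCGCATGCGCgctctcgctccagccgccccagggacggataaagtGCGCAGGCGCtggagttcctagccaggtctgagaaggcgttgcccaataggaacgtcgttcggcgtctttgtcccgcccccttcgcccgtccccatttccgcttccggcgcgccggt
Ndufs5 has 1 match and Cox6a1 has 2, while neither Uqcr10 nor Cox7b has one, so matches occurred among genes that rose and among genes that did not pass. No match of another motif overlapped those printed.

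Values are the deposited log2 signals. The array medians lay between 4.93 and 5.12. As a stand-in for background, the 95th percentile of 1015 olfactory receptor genes was 4.67, and all of the 93 genes but 2 exceeded it on average, the exceptions being Cox7b2 and Cox8b. Levels are not compared between genes, because array rows differ in their response. Of the microglia markers, 8 of 8 measured were above background, and the mean of the list lay between 10.84 and 10.95 after I/R and between 11.22 and 11.30 after sham in TLR4-/- arrays, and between 10.82 and 11.01 after I/R and between 11.23 and 11.29 after sham in WT arrays. Tlr4 itself had log2 values of 8.40, 8.04 and 7.62 after I/R and 8.47, 8.15 and 8.33 after sham in TLR4-/- arrays, against 8.23, 8.48, 8.14 and 8.33 after I/R and 8.92, 8.86, 8.75 and 8.57 after sham in WT arrays. The Tlr4 signal was thus present in both genotypes, and limma did not call it between them after I/R (adjusted p = 0.634) or after sham (adjusted p = 0.920). The difference, TLR4-/- minus WT, was -0.28 after I/R (limma unadjusted p = 0.0977), with overlapping groups. After sham it was -0.46 (limma unadjusted p = 0.0105). All TLR4-/- sham values lay below all WT sham values, as for 1.85% of all genes. The labels do not state which part of the gene the probes and the allele cover, so the genotype is the one on the labels throughout. WT sham array C correlated over all genes with the TLR4-/- sham arrays at r of 0.9872 to 0.9916 and with the other WT sham arrays at 0.9814 to 0.9865. TLR4-/- I/R array D correlated with the WT I/R arrays at 0.9901 to 0.9915 and with its own group at 0.9851 to 0.9898. Higher correlations with the other genotype were not particular to these arrays: TLR4-/- I/R array B had 0.9863 to 0.9879 with the other genotype and 0.9851 to 0.9865 with its own group, array C 0.9875 to 0.9902 and 0.9865 to 0.9898, and WT sham array D 0.9883 to 0.9909 and 0.9865 to 0.9889. WT sham array C and TLR4-/- I/R array D were the arrays whose correlations with the other genotype all exceeded those with their own group. Counts and medians of the 93 genes are also given without them.

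Many subunit genes rose after I/R in both genotypes and none fell. In TLR4-/- microglia, 30 of the 93 genes were called higher and 0 lower (limma, Benjamini-Hochberg adjusted p under 0.05 over all genes; at an unadjusted p under 0.05 the count in either direction was 62). Over all genes 5.04% were called higher and 3.13% lower. In WT microglia, 31 of the 93 were called higher and 0 lower (54 in either direction at an unadjusted p under 0.05), where 6.15% of all genes were called higher and 3.63% lower. Among the 12509 genes above background, 7.55% were called higher in TLR4-/- and 9.15% in WT microglia. The median log2 change of the 93 genes was 0.50 in TLR4-/- microglia, against -0.03 over all genes, and 0.41 in WT microglia, against -0.06 over all genes. A positive change was found for 88 of the 93 genes in TLR4-/- microglia and for 82 in WT microglia. Every I/R array lay above every sham array for 61 genes in TLR4-/- microglia, where 11.1% of all genes did so, and for 36 genes in WT microglia, where 7.78% of all genes did so. The opposite order was found for 1 gene in TLR4-/- microglia, Cox8c, where 12.5% of all genes showed it, and for 0 genes in WT microglia, where 7.83% did. Of the calls, 23 were shared, which is 76.7% of the TLR4-/- calls and 74.2% of the WT calls. Shared calls were not counted over all genes, so whether this share is particular to the 93 genes is not known.

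**Figure D1:**
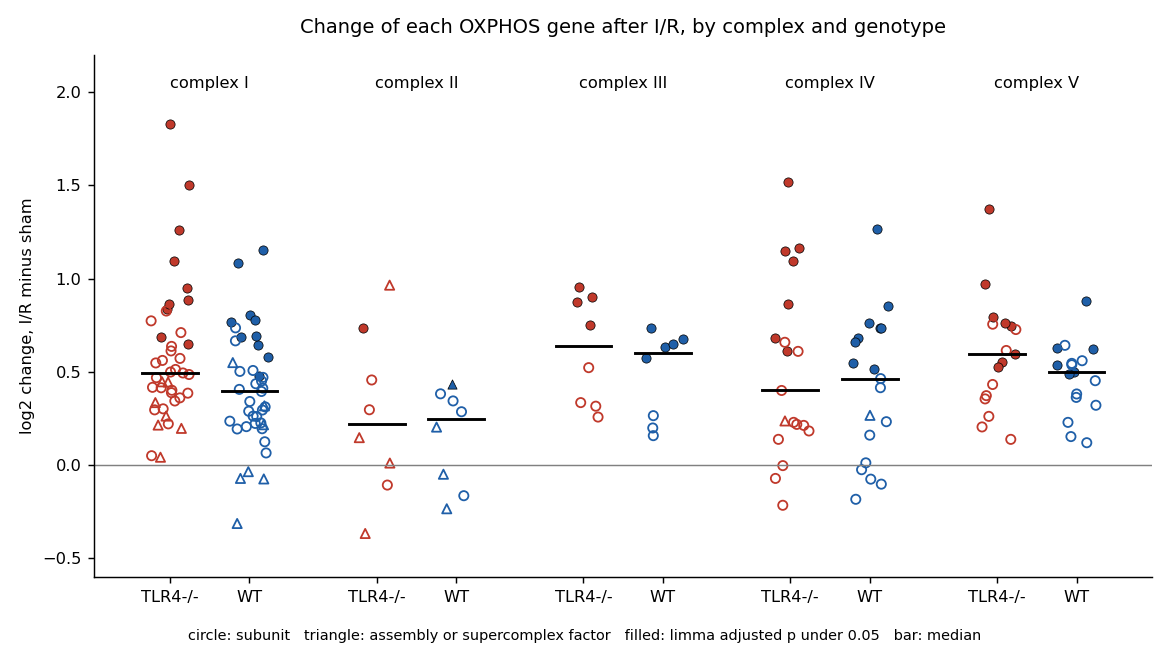
Log2 change after I/R (I/R minus sham, vertical axis) of each of the 93 genes, grouped by complex, with TLR4-/- left of WT. Filled symbols passed limma at an adjusted p under 0.05, triangles are assembly or supercomplex factors and the bars are medians. The filled symbols all lie above 0, and every complex has a median above 0 in both genotypes.

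The mean level of the genes per array showed the same order. The mean log2 value of the 93 genes was 8.58, 8.59 and 8.71 on the TLR4-/- I/R arrays, against 7.91, 8.14 and 8.20 on the TLR4-/- sham arrays. It was 8.58, 8.62, 8.65 and 8.76 on the WT I/R arrays, against 8.40, 8.33, 7.85 and 8.42 on the WT sham arrays. The I/R arrays lay above the sham arrays in both genotypes, while WT sham array C lay below the other WT sham arrays and below every TLR4-/- sham array. The medians over all genes lay between 5.27 and 5.36 on all arrays, array C included. Without WT sham array C, 44 of the 93 genes were called in TLR4-/- microglia and 17 in WT microglia (9.47% and 8.05% of all genes), and the WT median change was 0.29. In TLR4-/- microglia 19 genes were called when I/R array C was left out, 17 when I/R array D was, and 16 when sham array A was. The share of all genes called in either direction also fell, to 5.37%, 6.37% and 4.87% in the same order, against 8.17% with all arrays. In WT microglia 20 were called when I/R array C was left out and 17 when I/R array D was, with 7.05% and 6.74% of all genes called, against 9.78% with all arrays. None of these settings called a gene lower.

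**Figure D2:**
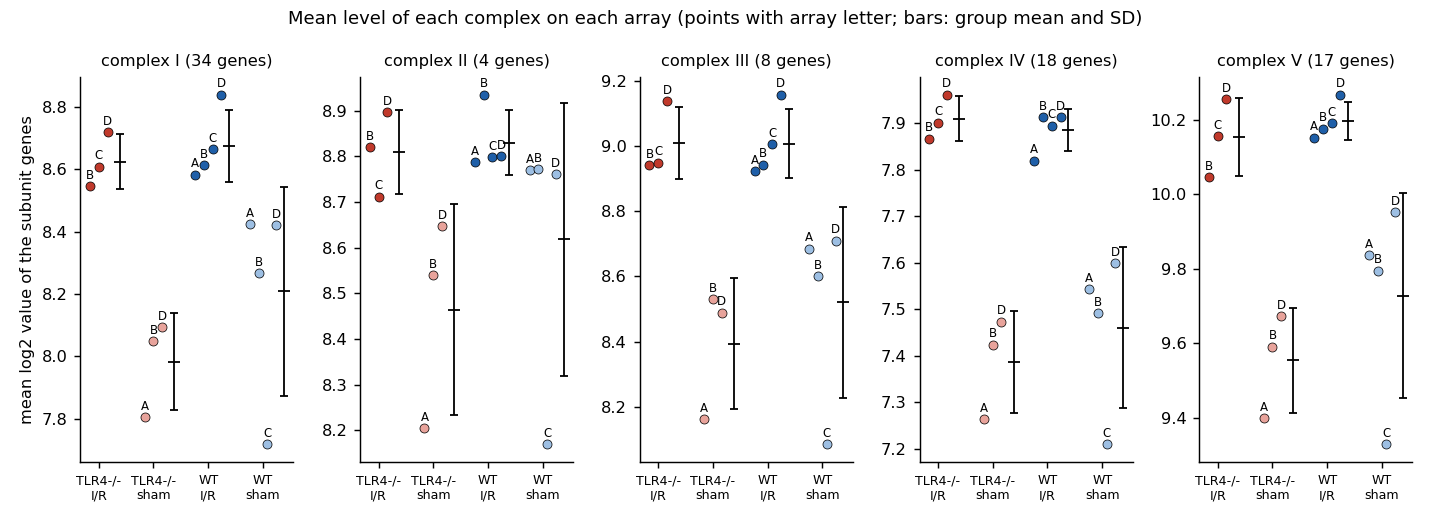
Mean log2 value of the subunit genes of each complex on each array (vertical axis; letters name the array), for TLR4-/- after I/R, TLR4-/- after sham, WT after I/R and WT after sham, left to right. Bars are the group mean and SD (n = 3 arrays in each TLR4-/- group and n = 4 in each WT group). In every complex the WT sham array C is the lowest of its group.

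Other cell groups moved with I/R. The 9 measured markers of dividing cells were all called higher in both genotypes, with a list mean between 8.00 and 8.05 after I/R and between 4.76 and 5.35 after sham in TLR4-/- arrays, and between 8.34 and 8.77 after I/R and between 4.53 and 5.42 after sham in WT arrays. Of 7 measured monocyte markers, 5 rose in TLR4-/- and 6 in WT microglia, with list means between 6.43 and 6.49 after I/R and between 4.52 and 4.76 after sham in TLR4-/- arrays, and between 6.39 and 7.03 after I/R and between 4.68 and 5.00 after sham in WT arrays. Vim, Ms4a4c, Plac8, Cd44 and S100a4 rose in both genotypes, and Chil3 passed in WT microglia only. Vim changed by 2.91 in TLR4-/- and 3.20 in WT microglia, and Cd44 by 1.35 and 1.59. Ccr2, a receptor of inflammatory monocytes, passed in neither genotype. Its log2 change was -0.22 (limma adjusted p = 0.501) in TLR4-/- and 0.41 (adjusted p = 0.0763) in WT microglia. At an unadjusted p under 0.05 in limma, 6 of the 7 monocyte markers passed in TLR4-/- and 7 in WT microglia. Of the 8 microglia markers, 4 fell in TLR4-/- and 6 in WT microglia. Markers of neutrophils, T and NK cells and neurons had 0 genes called by limma in either genotype (0 at an unadjusted p under 0.05), and all list means of T and NK cells lay below 4.67. Over all genes 8.17% were called in TLR4-/- and 9.78% in WT microglia. These lists are too short for a count of 0 to be told from those shares. The neutrophil list mean was 4.87 on WT I/R array C, against 3.69, 3.55 and 3.81 on WT I/R arrays A, B and D. On the WT sham arrays it lay between 3.74 and 4.04. WT I/R array C also had the highest monocyte list mean, 7.03. Of the astrocyte markers 1 fell in each genotype, of the oligodendrocyte markers none passed even at an unadjusted p under 0.05, and of the endothelial markers 1 fell in each genotype and 2 rose in WT microglia. The part of these cell groups in the changes of the oxidative phosphorylation genes was not tested, and in sorted bulk RNA a change in the share of cells and a change in RNA per cell cannot be told apart.

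In complex I, which oxidises NADH, the genes that rose were accessory subunits. Of its 34 subunit genes, 10 were called higher in each genotype, and the median log2 change was 0.55 in TLR4-/- and 0.42 in WT microglia. Every one of the 34 had a positive change in both genotypes. Ndufa1, an X-linked subunit needed for assembly of the complex, had values of 8.85, 8.77 and 8.69 after I/R, against 6.64, 7.08 and 7.10 after sham, in TLR4-/- arrays. In WT arrays it had 8.74, 8.64, 8.72 and 8.91 after I/R, against 7.99, 7.81, 6.85 and 7.75 after sham. The groups did not overlap in either genotype. Its log2 change was 1.83 (SE 0.22, limma adjusted p = 3.38e-05, 3.56-fold) in TLR4-/- and 1.15 (SE 0.19, adjusted p = 0.000642, 2.22-fold) in WT microglia, the largest change of the 93 genes in TLR4-/- microglia.

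Ndufs5, another accessory subunit, had values of 9.43, 9.62 and 9.82 after I/R, against 8.57, 8.39 and 8.62 after sham, in TLR4-/- arrays, a change of 1.10 (SE 0.18, limma adjusted p = 0.000917). Values in WT arrays were 9.55, 9.55, 9.62 and 9.81 after I/R, against 9.37, 8.47, 8.93 and 8.69 after sham, a change of 0.77 (SE 0.16, adjusted p = 0.0041). The I/R arrays were higher without overlap in both genotypes, although WT sham array A came close to them. Ndufs6, a zinc-binding accessory subunit, rose by 0.95 (adjusted p = 0.00196) in TLR4-/- and by 0.69 (adjusted p = 0.00602) in WT microglia. Ndufb2 rose by 0.86 and 0.64 (adjusted p = 0.00529 in TLR4-/- and 0.0125 in WT) and Ndufa2 by 0.84 and 0.81 (adjusted p = 0.0279 and 0.0126 in the same order). Ndufb5 and Ndufb6 also rose in both genotypes. Ndufa12, Ndufb8 and Ndufc1 were called in TLR4-/- microglia, and Ndufa3, Ndufb7 and Ndufb9 in WT microglia, and the difference between the genotypes was called for none of these. The call of Ndufa12 was lost in 12 of 22 alternative settings.

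Ndufc1 was represented by a pair of rows that disagreed in size. The row standing for the gene changed by 1.50 (adjusted p = 0.00189) in TLR4-/- and by 0.74 (adjusted p = 0.0607) in WT microglia, while the other row changed by 0.76 and 0.60. The nuclear-encoded subunits of the catalytic core were too few for their count to be told from the all-gene share. Of 6 core subunits (Ndufs1, Ndufs3, Ndufs7, Ndufs8, Ndufv1 and Ndufv2, a group chosen after the values were seen), 0 were called in either genotype in limma (2 at an unadjusted p under 0.05 in each), with medians of 0.32 in TLR4-/- and 0.25 in WT microglia. The 28 accessory subunits had medians of 0.60 and 0.47 in the same order. Ndufs1, the largest iron-sulfur subunit, had a change of 0.30 (adjusted p = 0.293) in TLR4-/- and 0.31 (adjusted p = 0.16) in WT microglia. Ndufv1, which binds NADH, had 0.22 (adjusted p = 0.546) and 0.12 (adjusted p = 0.678). Core and accessory subunits were not compared by a test.

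Complex II, which oxidises succinate and belongs to the citric acid cycle as well, is small, and 1 of its 8 genes was called in each genotype. Of its 4 subunit genes, 1 was called in TLR4-/- microglia and 0 in WT (limma; 1 at an unadjusted p under 0.05), with median log2 changes of 0.38 in TLR4-/- and 0.31 in WT microglia. Over all genes 5.04% were called higher in TLR4-/- and 6.15% in WT microglia, and the complex II genes are too few for their counts to be told from these shares. Sdhb, the iron-sulfur subunit, had values of 8.22, 8.17 and 8.39 after I/R, against 7.15, 7.72 and 7.71 after sham, in TLR4-/- arrays, and rose by 0.74 (SE 0.20, limma adjusted p = 0.0274). The WT arrays had 7.97, 8.17, 8.11 and 8.26 after I/R, against 8.12, 7.84, 7.24 and 7.93 after sham, a change of 0.34 (adjusted p = 0.245) with overlapping groups. Sdha, the flavoprotein that carries out the catalysis, had a negative change in both genotypes, of -0.11 (adjusted p = 0.726) in TLR4-/- and -0.16 (adjusted p = 0.415) in WT microglia, and its groups overlapped. The call of Sdhb in TLR4-/- microglia was lost in 4 of 22 alternative settings, at an adjusted p of up to 0.152.

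Of the 11 assembly factors, the Ndufaf and Sdhaf genes, 0 were called in TLR4-/- microglia (limma; 2 at an unadjusted p under 0.05) and 1 in WT (9.09%). These counts are near the shares of all genes called higher, 5.04% in TLR4-/- and 6.15% in WT microglia, and say nothing particular of assembly factors. The 11 genes had medians of 0.21 in TLR4-/- and -0.04 in WT microglia. The called gene was Sdhaf2, which attaches flavin to Sdha, with a change of 0.01 (adjusted p = 0.98) in TLR4-/- and 0.44 (adjusted p = 0.0372) in WT microglia. Its WT I/R values were 6.96, 7.27, 7.40 and 7.19, against 6.70, 6.92, 6.62 and 6.85 after sham, and the call was lost in 9 of 22 alternative settings. The lowest changes among the 93 genes were those of assembly factors, Sdhaf1 at -0.37 (adjusted p = 0.533) in TLR4-/- and Ndufaf1 at -0.31 (adjusted p = 0.496) in WT microglia. Sdhaf4 had rows that disagreed, at 0.96 and 0.09 in TLR4-/- and -0.23 and 0.10 in WT microglia. Of 24 measured assembly factors with other names, 2 rose in TLR4-/- microglia and 0 in WT (limma; 6 in WT at an unadjusted p under 0.05), with median log2 changes of 0.01 in TLR4-/- and 0.05 in WT microglia. The 2 were Cox17, a copper chaperone of complex IV (0.85, adjusted p = 0.0123), and Uqcc2, an assembly factor of complex III (1.15, adjusted p = 0.0186).

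In complex III, which passes electrons to cytochrome c, 4 of 8 genes rose in TLR4-/- and 5 in WT microglia, with medians of 0.64 and 0.60. The small subunits Uqcr10, Uqcr11, Uqcrb and Uqcrq were called in both genotypes. Uqcr10 had values of 9.24, 9.28 and 9.29 after I/R, against 8.17, 8.22 and 8.55 after sham, in TLR4-/- arrays, a change of 0.96 (SE 0.18, adjusted p = 0.00312). In WT arrays it had 9.12, 9.02, 9.09 and 9.44 after I/R, against 8.72, 8.49, 8.03 and 8.90 after sham, a change of 0.63 (SE 0.16, adjusted p = 0.0171). The groups did not overlap, and WT sham arrays A and D lay nearest to the I/R arrays. Uqcrb rose by 0.75 (adjusted p = 0.00618) and 0.68 (adjusted p = 0.00382), Uqcrq by 0.87 (adjusted p = 0.0132) and 0.65 (adjusted p = 0.028), and Uqcr11 by 0.90 (adjusted p = 0.0228) and 0.74 (adjusted p = 0.0274), in TLR4-/- and WT microglia in that order. Uqcrfs1, the Rieske iron-sulfur protein of the catalytic core, had a change of 0.52 (adjusted p = 0.143) in TLR4-/- and 0.57 (adjusted p = 0.0485) in WT microglia. That WT call was lost in 14 of 22 alternative settings. The large core proteins Uqcrc1 and Uqcrc2 had changes between 0.16 and 0.33 and passed in neither genotype.

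In complex IV, which passes electrons to oxygen, the muscle isoform Cox6a2 changed with the smallest p of all 93 genes. Of the 19 genes, 7 rose in TLR4-/- and 9 in WT microglia, with medians of 0.40 and 0.46. Cox6a2 had values of 8.25, 8.29 and 8.43 after I/R, against 6.80, 6.81 and 6.82 after sham, in TLR4-/- arrays. Values in WT arrays were 7.98, 8.26, 8.13 and 8.24 after I/R, against 6.99, 6.92, 6.89 and 6.74 after sham. The groups lay far apart, and WT sham array C lay among its group for this gene. The log2 change was 1.52 (SE 0.11, limma adjusted p = 2.15e-07, 2.86-fold) in TLR4-/- and 1.26 (SE 0.10, adjusted p = 1.31e-07, 2.40-fold) in WT microglia. Cox6a1, the isoform used by most tissues, had changes of 0.22 (adjusted p = 0.533) and 0.23 (adjusted p = 0.372). Its values were 10.50, 10.77 and 10.88 after I/R against 10.27, 10.57 and 10.65 after sham in TLR4-/- arrays, and the groups overlapped in both genotypes.

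The genes around Cox6a2 in the RefSeq table (assembly GRCm38.p6) were examined as its neighbours. Itgax, the integrin CD11c and 2 genes away, rose by 2.33 (adjusted p = 1.32e-05) in TLR4-/- and by 1.59 (adjusted p = 0.000126) in WT microglia. Itgad, between them, had -0.10 (adjusted p = 0.796) and -0.19 (adjusted p = 0.418), and Itgam, 3 genes away, had -0.07 in each (adjusted p = 0.816 in TLR4-/- and 0.729 in WT). Of the 3 genes on the other side, Armc5 among them, none passed in either genotype. Cox6a2 and Itgax were thus the called genes within 3 places.

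**Figure D3:**
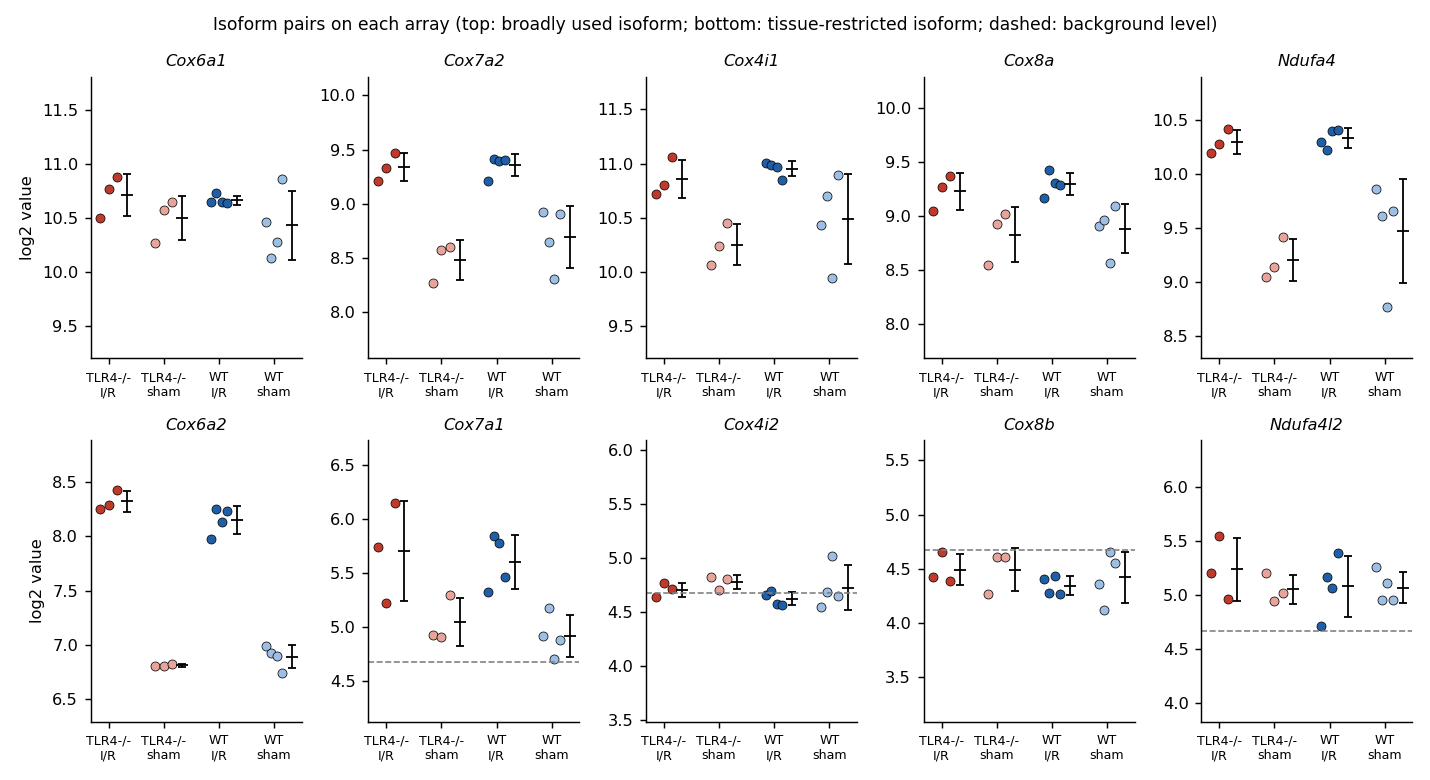
Log2 value on each array (vertical axis, the same span in every panel) of the broadly used isoforms (top row) and their tissue-restricted partners (bottom row), for TLR4-/- after I/R, TLR4-/- after sham, WT after I/R and WT after sham, left to right, with group mean and SD (n = 3 arrays in each TLR4-/- group and n = 4 in each WT group). The dashed line is the background level of 4.67. Cox6a2 is the tissue-restricted isoform with the largest separation of I/R from sham arrays.

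The other isoforms are given gene by gene, and no difference between isoforms was tested. Ndufa4, a subunit now assigned to complex IV, had values of 10.20, 10.27 and 10.42 after I/R, against 9.05, 9.14 and 9.42 after sham, in TLR4-/- arrays, and rose by 1.09 (adjusted p = 0.0026). The WT arrays had 10.29, 10.22, 10.40 and 10.41 after I/R, against 9.86, 9.61, 8.77 and 9.65 after sham, and rose by 0.86 (adjusted p = 0.00455). Its hypoxia-associated relative Ndufa4l2 had changes of 0.18 (adjusted p = 0.633) and 0.01 (adjusted p = 0.975). Cox7a2 rose by 0.86 (adjusted p = 0.00185) in TLR4-/- and by 0.66 (adjusted p = 0.00383) in WT microglia, while its muscle isoform Cox7a1 had 0.66 (adjusted p = 0.0609) in TLR4-/- and rose by 0.68 (adjusted p = 0.0213) in WT microglia. Cox4i1 had 0.61 (adjusted p = 0.0593) and 0.46 (adjusted p = 0.0913), while the group means of Cox4i2, between 4.62 and 4.78, lay so near the background level that its changes of -0.07 and -0.10 cannot be set against those of Cox4i1. Cox8a had 0.40 (adjusted p = 0.14) and 0.41 (adjusted p = 0.0619), and its muscle isoform Cox8b was not above background, which leaves that pair without a comparison. The testis isoforms Cox7b2 and Cox8c passed in neither genotype, and Cox6b2, also known from testis, had 0.21 (adjusted p = 0.586) in TLR4-/- and rose by 0.54 (adjusted p = 0.0369) in WT microglia, a call lost in 8 of 22 alternative settings. Its broadly used partner Cox6b1 had 0.23 (adjusted p = 0.373) in TLR4-/- and 0.16 (adjusted p = 0.446) in WT microglia. The sham means of Cox7a1 (5.04 in TLR4-/- and 4.92 in WT), Cox6b2 (5.15 and 5.12) and Ndufa4l2 (5.06 and 5.07) also lay near the background level.

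Further complex IV subunits that rose in both genotypes were Cox5a, Cox5b, Cox6c and Cox7b. Cox6c had values of 10.27, 9.74 and 9.94 after I/R, against 8.51, 8.88 and 9.07 after sham, in TLR4-/- arrays, a change of 1.16 (SE 0.18, adjusted p = 0.000429). In WT arrays it had 10.06, 10.02, 9.99 and 10.15 after I/R, against 9.52, 9.48, 8.90 and 9.25 after sham, a change of 0.76 (SE 0.15, adjusted p = 0.00349). The groups did not overlap in either genotype. Cox7b, an X-linked subunit, rose by 0.68 (adjusted p = 0.0109) and 0.73 (adjusted p = 0.00171). Cox5a rose by 1.15 (adjusted p = 0.0085) and 0.73 (adjusted p = 0.0436), and its WT call was lost in 11 of 22 alternative settings. Cox7a2l, the supercomplex factor, had 0.24 (adjusted p = 0.455) and 0.27 (adjusted p = 0.268).

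In complex V, which makes ATP, 8 of 17 genes rose in TLR4-/- and 6 in WT microglia, with medians of 0.60 and 0.50, and all 17 changes were positive in both genotypes. The catalytic head had small changes. Atp5b, the beta subunit, had values of 10.80, 11.02 and 11.05 after I/R, against 10.82, 10.73 and 10.91 after sham, in TLR4-/- arrays, a change of 0.14 (adjusted p = 0.556), and 0.12 (adjusted p = 0.502) in WT microglia. Atp5a1, the alpha subunit, had 0.26 (adjusted p = 0.279) and 0.32 (adjusted p = 0.0883). The 3 genes Atp5g1, Atp5g2 and Atp5g3 encode an identical mature subunit of the membrane ring, and of these Atp5g3 was called. Atp5g3 had values of 10.72, 10.56 and 10.59 after I/R, against 9.78, 9.96 and 9.90 after sham, in TLR4-/- arrays, a change of 0.75 (SE 0.13, adjusted p = 0.00143). Values in WT arrays were 10.79, 10.47, 10.72 and 10.69 after I/R, against 10.24, 10.13, 9.77 and 10.03 after sham, a change of 0.63 (SE 0.11, adjusted p = 0.00148). Its groups did not overlap in either genotype. Atp5g1 had 0.76 (adjusted p = 0.0669) and 0.55 (adjusted p = 0.121), and its groups did not overlap in either genotype. Atp5g2 had 0.37 (adjusted p = 0.208) and 0.38 (adjusted p = 0.109), with overlap in WT arrays only.

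Several small membrane subunits of the synthase rose as well. Atp5k, subunit e, had values of 9.08, 8.97 and 9.22 after I/R, against 8.04, 8.38 and 8.56 after sham, in TLR4-/- arrays, and rose by 0.76 (adjusted p = 0.0164). The WT arrays had 9.26, 9.17, 9.20 and 9.36 after I/R, against 8.21, 8.69, 7.90 and 8.67 after sham, and rose by 0.88 (adjusted p = 0.00165). Atp5l, subunit g, Atp5mpl, a small proteolipid, and Atp5o, which links the stalk to the head, also rose in both genotypes. Atp5mpl changed by 0.79 (adjusted p = 0.00172) and 0.62 (adjusted p = 0.00299), and Atp5l by 0.53 (adjusted p = 0.025) and 0.50 (adjusted p = 0.0117). Atp5l had 6 rows, whose changes lay between 0.50 and 0.58 in TLR4-/- and between 0.46 and 0.54 in WT microglia. Atp5md, also known as Usmg5, had 1.37 (SE 0.24, adjusted p = 0.00143) in TLR4-/- and 0.64 (SE 0.21, adjusted p = 0.0642) in WT microglia. Atp5e, the epsilon subunit, had 0.97 (adjusted p = 0.00401) and 0.54 (adjusted p = 0.0524).

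**Figure D4:**
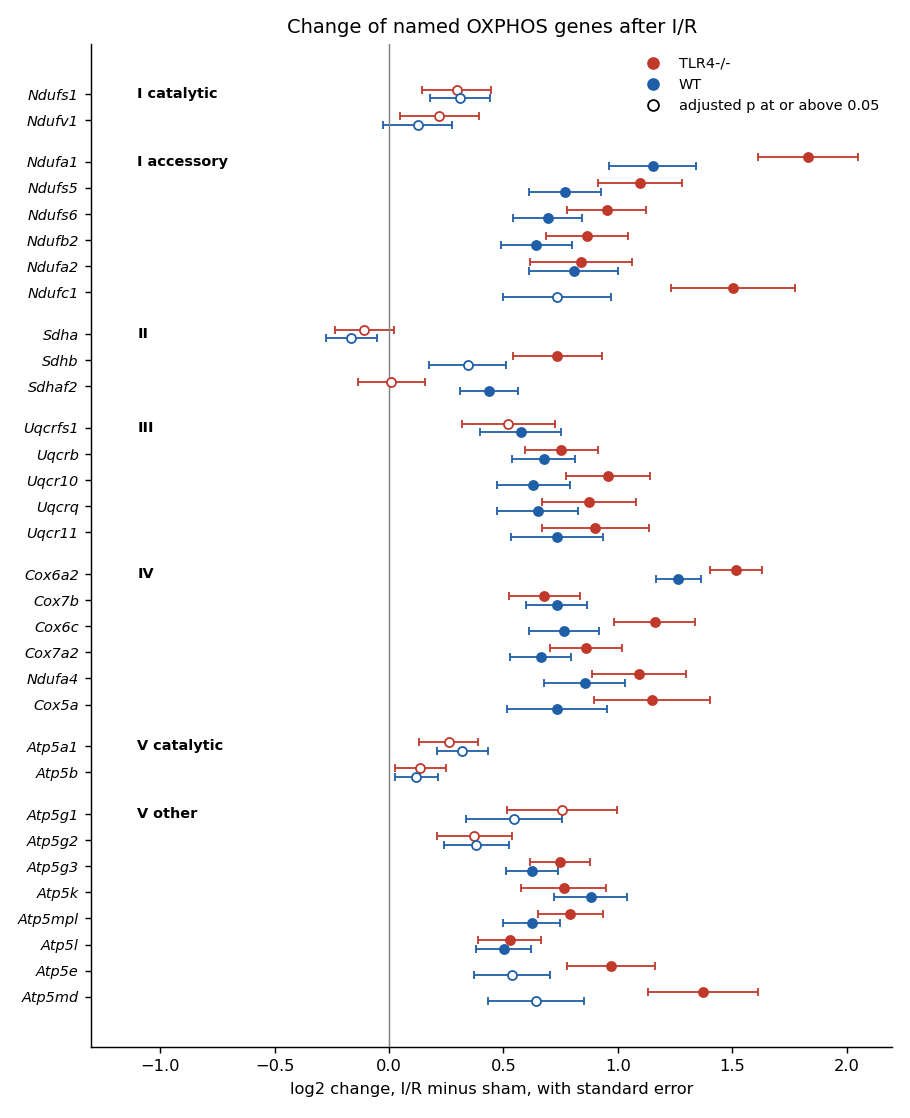
Log2 change after I/R (horizontal axis, with its standard error from limma) of 32 named genes by complex and role, TLR4-/- above WT within each gene. Filled points passed at an adjusted p under 0.05. Of the catalytic subunits shown, Ndufs1, Ndufv1, Sdha, Atp5a1 and Atp5b are open in both genotypes. Sdhb is filled in TLR4-/- and Uqcrfs1 in WT. Ndufa1 and Cox6a2 lie farthest to the right in WT.

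The difference between the genotypes in the response to I/R was tested as an interaction. It was called for 0 of the 93 genes and for 0% of all genes (limma, 5 of the 93 at an unadjusted p under 0.05). The median difference, TLR4-/- change minus WT change, was 0.12 for the 93 genes and 0.02 for all genes, and 70 of the 93 were positive. Single arrays moved this median: it was 0.02 with 50 positive without TLR4-/- sham array A, 0.04 with 62 positive without TLR4-/- I/R array D, and 0.05 with 59 positive without WT sham array D. It was 0.08 with 65 positive without WT sham array A and 0.22 with 85 positive without WT sham array C, and 0 of the 93 were called each time. The smallest p was that of Sdhaf4 (1.20, SE 0.48, unadjusted p = 0.0229), whose rows disagreed, followed by Ndufa1 (0.68, SE 0.29, unadjusted p = 0.0326) and Atp5md (0.73, SE 0.32, unadjusted p = 0.0352). For Cox6a2 the difference was 0.25 (SE 0.15, unadjusted p = 0.112). A call in 1 genotype alone, as for Sdhb, Atp5md or Ndufc1 in TLR4-/- microglia, therefore does not show that the genotypes differ.

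After I/R no difference in these genes was called between arrays labelled TLR4-/- and WT. In limma 0 of the 93 were called (1 at an unadjusted p under 0.05), where 0.0201% of all genes were called, and the median difference was -0.02 against 0.03 over all genes, with 41 of the 93 positive. The median was -0.09 with 30 positive without TLR4-/- I/R array D, -0.05 with 30 positive without WT I/R array A, -0.07 with 23 positive after centring the arrays on their medians, and 0.02 with 50 positive without WT I/R array D, so its sign is not settled. The gene at an unadjusted p under 0.05 was Sdhaf2, with 6.74, 6.73 and 7.08 in TLR4-/- I/R arrays, against 6.96, 7.27, 7.40 and 7.19 in WT I/R arrays (difference -0.36, SE 0.14, unadjusted p = 0.0183, adjusted p = 0.535). No gene lay higher without overlap in TLR4-/- arrays, where 6.13% of all genes did, and 1, Atp5pb, lay lower, where 3.2% of all genes did.

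After sham surgery most of the genes had a negative difference, TLR4-/- minus WT, and none passed the test. Of the 93, 77 had a negative difference, and the median was -0.16 against 0.01 over all genes. In limma 0 were called (8 at an unadjusted p under 0.05), where 0.00502% of all genes were called. The groups did not separate for any of the 93, where 3.65% of all genes lay higher and 1.85% lower without overlap. Ndufa1 had 6.64, 7.08 and 7.10 in TLR4-/- sham arrays, against 7.99, 7.81, 6.85 and 7.75 in WT sham arrays (difference -0.66, SE 0.21, unadjusted p = 0.00529, adjusted p = 0.92). WT sham array C lay within the TLR4-/- values for Ndufa1, and the other WT sham arrays lay above them. Atp5md had a difference of -0.72 (SE 0.23, adjusted p = 0.92) and Cox6c of -0.47 (SE 0.17, adjusted p = 0.92). Without WT sham array C the median difference was -0.29, 88 of the 93 were negative, and Ndufa1 was called lower in TLR4-/- arrays (-0.91, adjusted p = 0.0177), when 10 genes were called in all (0.0502%). Other arrays moved the median the other way, to -0.07 with 62 negative without TLR4-/- sham array A, to -0.10 with 72 negative without WT sham array A and to -0.10 with 64 negative without WT sham array D, and 0 of the 93 were called in those settings. Both comparisons between genotypes share their arrays with the comparisons of I/R against sham.

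Genes of related pathways were counted from lists. Of 7 electron carriers and further subunits, 4 rose in TLR4-/- and 2 in WT microglia (medians 0.61 and 0.51). One of the 7 is Atp5md, already counted above. Cycs, which encodes cytochrome c, rose by 0.77 (adjusted p = 0.00148) and 0.51 (adjusted p = 0.00961), and Etfa, of the electron transfer flavoprotein, by 0.61 (adjusted p = 0.0167) and 0.56 (adjusted p = 0.00933). Cyc1, a complex III subunit that the prefixes miss, had 0.32 (limma adjusted p = 0.371) in TLR4-/- and 0.29 (adjusted p = 0.318) in WT microglia. Cyc1, Etfb and Etfdh passed in neither genotype. Of 16 measured genes of the citric acid cycle and pyruvate dehydrogenase, 3 rose in TLR4-/- microglia (Cs, Fh1 and Idh3a) and 2 in WT (Fh1 and Suclg2), with medians of 0.33 and 0.31. Of 77 mitochondrial ribosome genes, 11 rose in TLR4-/- and 9 in WT microglia (medians 0.40 and 0.26). No gene of these lists fell. Over all genes 5.04% were called higher in TLR4-/- and 6.15% in WT microglia.

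Regulators of mitochondrial biogenesis and genes of glycolysis were counted in the same way. Of 12 regulators, among them Ppargc1a, Nrf1 and Tfam, 0 were called by limma in either genotype (1 at an unadjusted p under 0.05 in each), and the median was -0.09 in both. Over all genes 8.17% were called in TLR4-/- (5.04% higher) and 9.78% in WT microglia (6.15% higher). The 12 regulators are too few for their count to be told from these shares. Ppargc1a was below background in every group mean, between 3.58 and 3.85. Of 15 measured glycolysis genes, 6 rose in each genotype (medians 0.34 in TLR4-/- and 0.41 in WT microglia). Pgk1, an ATP-forming step of glycolysis, rose by 1.64 (adjusted p = 5.98e-05) and 1.50 (adjusted p = 2.36e-05), and Ldha, which makes lactate, by 0.96 (adjusted p = 0.00196) and 1.03 (adjusted p = 0.000195). Tpi1, Pkm and Pgam1 also rose in both genotypes. WT sham array C was also the lowest of its group in the mean of every pathway list measured. For the mitochondrial ribosome it had 6.90, against 7.28 to 7.49 on the other WT sham arrays. For the electron carriers it had 8.47 against 8.87 to 9.07, and for the citric acid cycle 7.99 against 8.25 to 8.31. For glycolysis it had 8.32 against 8.59 to 8.69, and for the regulators 6.03 against 6.18 to 6.34. The part of this array in these counts was not tested list by list.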

How the data were processed

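RNA of sorted microglia was measured on 14 arrays. The authors deposited log2 values, made with RMA in the oligo package per the submitters' processing notes, which give no version. RMA corrects background, brings arrays to a common distribution and summarises probes, so values show relative signal and an equal shift of all genes would be lost. Arrays have no sequencing depth, and their number limits precision. Symbols came from the platform annotation: of 35556 rows, 21789 had 1 symbol, 1621 several and 12146 none here, and only the first were used. All 93 members matched a RefSeq gene table.

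All arrays entered 1 model of 4 group means in limma 3.58.1 (R 4.3.3, lmFit and eBayes). P-values were adjusted by Benjamini-Hochberg over 19938 genes and called under 0.05. The fit was tested on simulated data. No block was used in this model, since most pairs of arrays with the same letter correlated weakly once group means were removed. Members and gene lists were chosen with earlier results of these data known. Genes were named by rule: up to 5 called genes per complex and direction by smallest p (else the smallest p), isoform pairs, catalytic subunits and extremes. Other named genes were chosen after their values were seen. Alternatives were array centring, trended and robust eBayes, array weights, models of only the compared groups, leaving out dim genes, the mean of all rows, a replicate block, subunits only, and leaving out arrays.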

Additional observations from a re-analysis of the deposited data

Results flagged for a closer look

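A far array was looked for in the 102 sets of 4 WT values formed by the genes named above and the means per complex; TLR4-/- groups hold 3 arrays and were not examined. In 11 sets the highest or lowest array lay farther from the rest than Dixon's critical value at 95% allows, and chance gives about 1 in 20. A single low array in the WT sham group, array C in each case, accounts for these values: the mean of all 93 genes (7.85), the mean of the complex II subunits (8.17), and Atp5mpl (9.93), Atp5pb (9.46), Ndufa2 (8.503), Ndufb2 (5.18) and Uqcr11 (6.90). In the WT I/R group, array B was far above the others for the mean of the complex II subunits (8.93), Cox6a1 (10.73) and Cox6b2 (5.98), and array A far below them for Cox7a2 (9.21). Of the 93 genes, 17 were called in WT microglia without sham array C, 22 without I/R array B and 25 without I/R array A, against 31 with all arrays.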

How the results depend on the processing

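Leaving out 1 array at a time gave 16 to 44 called genes in TLR4-/- microglia (30 with all arrays) and 17 to 37 in WT (31 with all arrays), all higher. Leaving out WT sham array C and TLR4-/- I/R array D together gave 33 in TLR4-/- and 20 in WT microglia. Between genotypes after sham the count was 0 to 1 with 1 array left out and 1 with both left out, Ndufa1 in each (adjusted p = 0.0177 and 0.0254). The other settings gave 29 to 39 calls in TLR4-/- and 27 to 36 in WT microglia. All settings kept 15 of the 30 TLR4-/- calls and 16 of the 31 WT calls, Cox6a2, Ndufa1, Ndufs5, Ndufs6, Atp5g3 and Uqcrb among both. The interaction and the genotypes after I/R had 0 members called in every setting. With the replicate block the counts were 34 and 32. Of 18 pairs of arrays with the same letter, 3 correlated above 0.1 (r from -0.0987 to 0.2809), so the letters do not pair the arrays.

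Among the genes named by rule in each comparison, signs turned for 3 near 0, in comparisons where they passed in no setting. Over all 93 genes more signs moved: the number positive for the genotypes after sham was 31 without TLR4-/- sham array A against 16 with all arrays, for the genotypes after I/R 23 with centring against 41 without it, and for WT after I/R 79 without sham array C against 82. With 1 array left out, Cox8b lay between -0.117 and 0.0544 in TLR4-/- microglia and between -0.1766 and 0.0009 in WT microglia. In TLR4-/- microglia it was 0.0648 with array weights, and with WT sham array C and TLR4-/- I/R array D both left out it was 0.0462 in TLR4-/- and 0.0009 in WT microglia. With 1 array left out, Ndufa4l2 lay between -0.0904 and 0.1357 in WT microglia, and Cox7a1 between -0.0023 and 0.2106 for TLR4-/- against WT after sham. The cause was not tested.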
